A study of Mus musculus with 90 samples.

Results

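CT26 cells kept in IFNγ for 1 week were compared with CT26 cells cultured for the same week without it. CT26 is a mouse colon carcinoma line. IFNγ was given at 50 IU/mL throughout the week, and these cells received no further IFNγ before harvest (0 h of rechallenge). The rule took the 3 IFNγ replicates and the 3 controls of 1 week, 6 of the 90 samples in the series, all of the same parental line and carrying no engineered change named in the labels. The other samples used below are of naive CT26 cells without IFNγ or with IFNγ for 24 h, of CT26 cells at 2 and 3 weeks with and without IFNγ, of 1-week IFNγ cells given fresh IFNγ for 2 or 24 h, and of YUMM2.1 melanoma cells with and without IFNγ for 1 week, with 3 samples in every group. RNA was measured by 3′ digital gene expression, which counts reads from the 3′ end of transcripts, so that levels are given as counts per 1000000 counts of the library (CPM) and compared within a gene only.

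IFNγ binds a receptor of the chains IFNGR1 and IFNGR2, whose kinases JAK1 and JAK2 pass the signal to transcription factors in the cytoplasm. These enter the nucleus, bind GAS elements in promoters and induce a first set of genes, among them the transcription factor IRF1, which with its relatives binds ISRE elements and induces a second set. In tumour cells the pathway is known for raising MHC class I antigen presentation and the immunoproteasome that cuts peptides for it. It is also known for raising the checkpoint ligand PD-L1 and cell-autonomous defence GTPases of the GBP and IRG families. SOCS1 holds the signal back.

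The 3 controls held 1166560, 1572254 and 2205285 counts and the 3 IFNγ libraries 1398869, 776937 and 322486. The last of these, IFNγ replicate 3, was at 24.5% of the median of the 45 CT26 libraries (1318011), and a count of 0 in it allows a level of up to 9.30 CPM (3 counts; counting error only), against 1.36 to 3.86 CPM in the other 5. These limits and the summed marker levels are CPM of the plain library total, whereas gene levels use TMM-scaled totals. Raw counts given below are not scaled for depth. The IFNγ libraries together held fewer counts than the controls, so that equal counts mean a higher level in IFNγ. Between 5.54 and 6.72% of the counts were mitochondrial. Of 8 colon epithelium markers, Epcam, Krt8, Krt19, Cdh1 and Vil1 were at 0 counts in all 6 libraries, so that the labelled tissue showed only in Krt18 and Krt20 among those tested, and the summed level of the 8 was 66.8 to 72.9 CPM in controls and 58.9 to 62.2 in IFNγ libraries. Of 12 leukocyte markers 10 were at 0 in all 6 libraries, and their sum reached at most 6.20 CPM. Among the other markers, 4 of 7 of the melanocyte lineage were at 0 throughout and their sum reached at most 9.01 CPM, the 7 fibroblast markers summed to 64.3 to 70.0 CPM in controls and 65.6 to 111.5 in IFNγ libraries, and no marker of any of these lists passed the test. Of the 4 endothelium markers Cdh5, Kdr and Tek were at 0 throughout, and Pecam1 gave the whole sum of 252, 306.6 and 312.4 CPM in controls and 278.1, 262.6 and 493 in IFNγ libraries, highest in the shallow replicate 3.

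The sequences just before the start of 6 induced genes are given first, since they hold the letters known as interferon response elements. They belong to the GBP and IRG families and are the 6 listed pathway genes of chromosomes 3 and 11 with the smallest p that hold a match. Each line holds the 250 bases before the annotated start in RefSeq (GRCm38.p6), 5′ to 3′ on the strand of the gene, and capitals mark TTCNNNGAA (GAS) or GAAANNGAA (ISRE) on either strand.
Gbp3 (chr3:142559794-142560043, plus strand): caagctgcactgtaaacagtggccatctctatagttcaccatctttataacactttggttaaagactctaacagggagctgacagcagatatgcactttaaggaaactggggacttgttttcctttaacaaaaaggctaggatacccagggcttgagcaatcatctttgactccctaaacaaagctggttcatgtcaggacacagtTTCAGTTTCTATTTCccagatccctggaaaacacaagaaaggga
Gbp7 (chr3:142530086-142530335, plus strand): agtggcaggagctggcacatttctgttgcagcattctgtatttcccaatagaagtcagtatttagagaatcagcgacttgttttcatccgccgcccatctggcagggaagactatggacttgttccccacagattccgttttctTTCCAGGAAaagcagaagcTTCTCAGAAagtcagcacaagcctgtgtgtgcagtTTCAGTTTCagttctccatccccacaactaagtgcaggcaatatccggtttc
Tgtp2 (chr11:49064213-49064462, minus strand): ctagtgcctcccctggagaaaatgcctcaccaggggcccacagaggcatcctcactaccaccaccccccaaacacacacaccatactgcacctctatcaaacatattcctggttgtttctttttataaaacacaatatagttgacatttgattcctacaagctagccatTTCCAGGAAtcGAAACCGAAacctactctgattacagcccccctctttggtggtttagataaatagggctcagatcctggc
Igtp (chr11:58199306-58199555, plus strand): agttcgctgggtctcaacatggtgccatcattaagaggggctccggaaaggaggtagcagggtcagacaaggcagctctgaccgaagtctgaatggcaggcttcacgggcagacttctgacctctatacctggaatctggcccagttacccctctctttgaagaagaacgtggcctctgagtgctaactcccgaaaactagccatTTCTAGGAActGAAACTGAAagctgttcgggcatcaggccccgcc
Irgm1 (chr11:48871421-48871670, minus strand): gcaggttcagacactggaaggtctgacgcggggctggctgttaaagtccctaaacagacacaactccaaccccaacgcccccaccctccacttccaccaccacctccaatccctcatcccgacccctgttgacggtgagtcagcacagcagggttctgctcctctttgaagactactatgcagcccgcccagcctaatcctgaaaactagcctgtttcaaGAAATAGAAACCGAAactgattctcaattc
Gbp2 (chr3:142620413-142620662, plus strand): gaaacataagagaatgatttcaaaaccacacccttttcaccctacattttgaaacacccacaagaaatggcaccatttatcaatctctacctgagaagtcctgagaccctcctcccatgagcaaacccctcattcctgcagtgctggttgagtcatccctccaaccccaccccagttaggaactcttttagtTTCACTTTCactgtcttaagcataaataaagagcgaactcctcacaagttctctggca
In Igtp and Tgtp2, both GTPases of the IRG family, a GAS and an ISRE lay 2 bases apart, and Gbp7 held 2 GAS and 1 ISRE. Gbp3 and Irgm1 held 2 ISRE each and Gbp2 held 1. In Gbp3 and Irgm1 the pair shared bases, and it is printed as 1 run of capitals. Of the 56 genes higher after 1 week of IFNγ, 43 had an entry in the promoter table, and of these 7 (16.3%) held a GAS, 16 (37.2%) an ISRE and 19 (44.2%) either. Over the 6405 tested genes with an entry the shares were 6.81%, 7.67% and 13.7%, and over all 32851 promoters of the RefSeq set 7.02%, 7.13% and 13.4%. The letters alone are a description of these windows, and binding was not measured.

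The question of the comparison was which genes differed from the parallel untreated culture when IFNγ had been present for 1 week. Of 8516 genes tested, 62 (0.728%) passed at 0.05 after Benjamini-Hochberg adjustment of the quasi-likelihood p of edgeR. Of these, 56 were higher in IFNγ (0.658% of those tested) and 6 lower (0.0705%), and 624 genes had an unadjusted p below 0.05. In 53 of the 56 and in all 6, the 3 IFNγ libraries lay on one side of the 3 controls, whereas among all tested genes 527 (6.19%) had all 3 IFNγ libraries above the controls. The median log2 fold change over all tested genes was 0.01. In bulk RNA, a change in the share of cells that express a gene and a change in its RNA per cell cannot be told apart. Of the 62 genes, 47 belonged to the 30 lists compiled by role, all 47 higher, and 15 to none.

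Neither Stat2 nor Ifngr2, parts of interferon signalling itself, passed the test. Stat2, a transcription factor of the type I interferon complex, had 0.917, 2.71 and 3.90 CPM in controls and 12.1, 8.09 and 19.0 in IFNγ without passing (log2 fold change 2.07, SE 0.554, edgeR adjusted p = 0.0693). Ifngr2, the signalling chain of the receptor, had 16 counts in the controls together and 0 in IFNγ, where the edgeR adjusted p was 0.265.

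Irf1 and Irf7 were the transcription factors that rose. Irf1, an early target of the pathway, had 9.17, 4.07 and 10.2 CPM in controls and 24.95, 25.6 and 34.8 in IFNγ (log2 fold change 1.74, SE 0.281, edgeR adjusted p = 5.59e-05). Irf7, which drives type I interferon genes, had 5.50, 4.75 and 4.39 CPM in controls and 24.2, 18.9 and 25.3 in IFNγ (log2 fold change 2.22, SE 0.353, edgeR adjusted p = 4.34e-05). The groups overlapped in neither gene. The other 5 tested members of the list, Irf2, Irf3, Irf9, Batf2 and Nlrc5, did not pass. Nlrc5, the activator of MHC class I genes, had 4 counts in all controls and 8 in all IFNγ libraries, too few for this depth to tell apart (edgeR adjusted p = 0.685).

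Of 9 tested feedback inhibitors 1 passed. This was Usp18, which removes ISG15 and also blocks signalling of the type I interferon receptor. It had 16.5, 11.5 and 11.2 CPM in controls and 53.5, 53.9 and 37.9 in IFNγ (log2 fold change 1.98, SE 0.272, edgeR adjusted p = 2.24e-06). Socs1, the main inhibitor of the JAKs in this pathway, had 4 counts in the controls and 6 in IFNγ (edgeR adjusted p = 0.843). The list's median log2 fold change was 0.05.

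**Figure D1:**
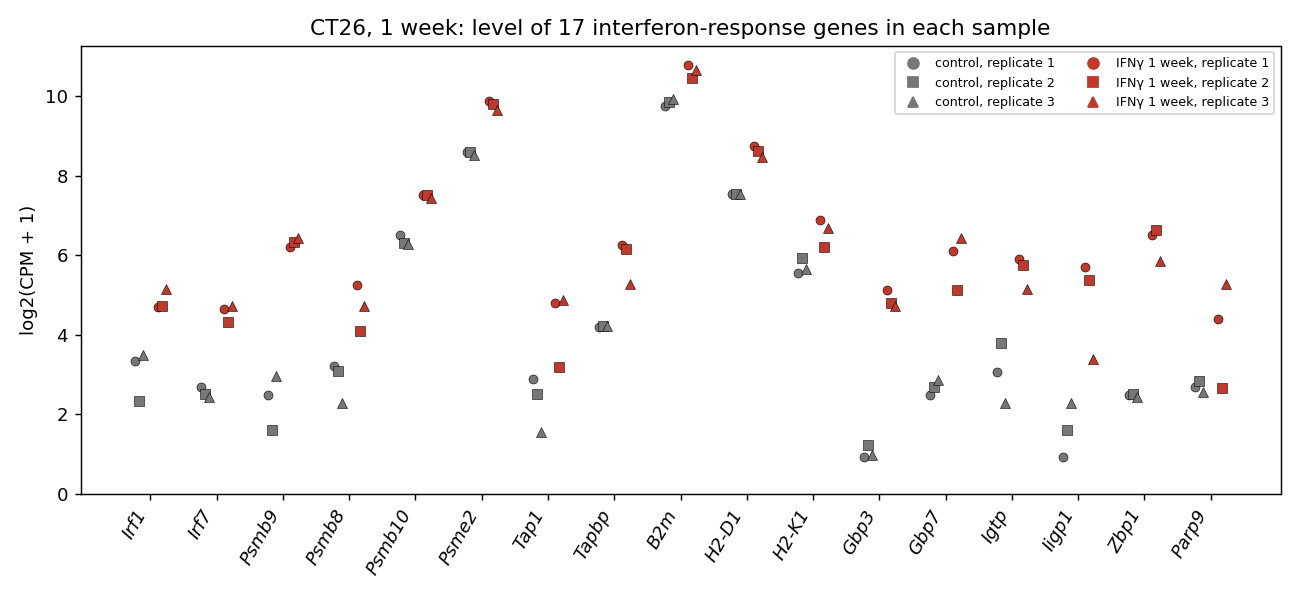
Level of 17 interferon-response genes in each CT26 library at 1 week, as log2(CPM + 1), with controls in grey, IFNγ in red and a marker shape per replicate. The groups are apart in every gene shown except Parp9, in which IFNγ replicate 2 (5.39 CPM) lies within the controls.

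The immunoproteasome was the list with the highest share of members called, 5 of 6, with a median log2 fold change of 1.18. Psmb9, which encodes the catalytic subunit LMP2, had 4.59, 2.04 and 6.82 CPM in controls and 73.4, 79.5 and 85.4 in IFNγ, a 16.1-fold increase (log2 fold change 4.01, SE 0.287, edgeR adjusted p = 8.85e-14). Psmb8 (LMP7) had 8.26, 7.46 and 3.90 CPM in controls and 37.1, 16.2 and 25.3 in IFNγ (log2 fold change 2.17, edgeR adjusted p = 6.94e-05, but 0.16 without IFNγ replicate 1). Psmb10 (MECL-1) was already expressed, at 77.0 to 89.9 CPM in controls, and reached 173.9 to 182.5 CPM in IFNγ (log2 fold change 1.15, edgeR adjusted p = 4.45e-09). The 3 subunits thus started at different levels and rose by different amounts.

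The PA28 activator, which opens the proteasome's gate, rose in both of its interferon-induced chains. Psme2 went from 385.3, 385.5 and 367.5 CPM to 933.3, 894.8 and 796.8 CPM (log2 fold change 1.21, SE 0.107, edgeR adjusted p = 2.35e-11). Psme1 went from 66.1, 70.6 and 90.2 to 176.1, 137.5 and 145.4 CPM (log2 fold change 1.02, SE 0.149, edgeR adjusted p = 7.70e-06). The sixth member, Pomp, the assembly chaperone shared with the standard proteasome, had a log2 fold change of 0.08 (edgeR adjusted p = 0.95). None of the 3 constitutive catalytic subunits that the induced ones replace, Psmb5, Psmb6 and Psmb7, passed the test (log2 fold changes −0.24, 0.09 and −0.13).

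MHC class I and peptide loading gave 6 calls of 17 tested, with a median log2 fold change of 0.79. B2m, the light chain of every class I molecule, was among the most abundant genes called: 858.6, 916.2 and 967.5 CPM in controls and 1743, 1402 and 1603 in IFNγ (log2 fold change 0.79, SE 0.134, edgeR adjusted p = 0.000127). The class I heavy chain H2-D1 went from 186.2, 184.6 and 186.2 to 425.7, 389.5 and 351.0 CPM (log2 fold change 1.08, SE 0.13, edgeR adjusted p = 1.06e-07). H2-K1 went from 45.9, 60.4 and 49.2 to 117.6, 72.8 and 101.2 CPM (log2 fold change 0.92, SE 0.216, edgeR adjusted p = 0.0154). This call was lost without control replicate 1 or 3 or IFNγ replicate 1 or 3, with edgeR adjusted p from 0.0517 to 0.517. The groups did not overlap in these 3 genes. CT26 derives from the BALB/c strain, whereas mm10 is the genome of C57BL/6, so that class I reads were assigned to alleles of another strain; what this does to the counts was not tested.

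Among the loading factors, Tapbp, which encodes tapasin, rose from 17.4, 17.7 and 17.6 CPM to 74.9, 70.1 and 37.9 (log2 fold change 1.90, SE 0.268, edgeR adjusted p = 3.86e-06). Tap1, a subunit of the peptide transporter, had 6.42, 4.75 and 1.95 CPM in controls and 27.1, 8.09 and 28.5 in IFNγ (log2 fold change 2.36, SE 0.54, edgeR adjusted p = 0.0113, lost without control replicate 3 or IFNγ replicate 1 at 0.26 and 0.427). The nonclassical class I gene H2-T22 rose from between 8.77 and 14.2 CPM to between 39.1 and 47.4 (log2 fold change 1.87, edgeR adjusted p = 1.06e-07). The peptide-trimming enzyme Erap1 and the transporter's other subunit Tap2 had log2 fold changes of 1.3 and 1.53 without passing (edgeR adjusted p = 0.0554 and 0.145). Tapbpl, a tapasin relative at 1091 to 1238 CPM in controls, had a log2 fold change of −0.15. The 7 genes of chromosome 17 that rose were H2-D1, H2-K1, H2-T22, Psmb8, Psmb9, Tap1 and Tapbp, all of the mouse MHC. No MHC class II gene had enough counts to be tested, 0 of 10.

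The GBP family, large GTPases that attack the vacuoles of intracellular microbes, gave 5 calls of 10 tested and a median log2 fold change of 3.02, or 2.80 when genes at 0 counts in one group were set at the change that 3 counts allow. Gbp3 had 0.917, 1.36 and 0.975 CPM in controls (5 counts together) and 34.2, 26.9 and 25.3 in IFNγ, a 25.7-fold increase (log2 fold change 4.68, SE 0.366, edgeR adjusted p = 1.18e-12). Gbp7 went from 4.59, 5.43 and 6.34 to 68.5, 33.7 and 85.4 CPM (log2 fold change 3.39, SE 0.269, edgeR adjusted p = 1.42e-12). Gbp2, Gbp2b and Gbp4 had log2 fold changes of 2.90, 2.81 and 3.13. In all 5 the lowest IFNγ library was above the highest control. Among the members not called, Gbp5, Gbp6 and Gbp10 were at or near the limit of detection. Gbp5 had 0 counts in controls and 2 in IFNγ, Gbp6 0 and 11, and Gbp10 none in any of the 6 libraries. The lowest log2 fold change of a member not called was −1.66.

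The IRG GTPases, a related defence family, gave 7 calls of 10 tested, a median log2 fold change of 2.78 (2.66 with genes at 0 at their bound). Igtp (Irgm3) went from 7.34, 12.9 and 3.90 to 58.5, 52.6 and 34.8 CPM (log2 fold change 2.75, SE 0.241, edgeR adjusted p = 2.35e-11). Iigp1 (Irga6) went from 0.917, 2.04 and 3.90 to 51.3, 40.4 and 9.49 CPM (log2 fold change 3.92, SE 0.383, edgeR adjusted p = 4.52e-10), with the shallow IFNγ library lowest at 3 counts. Irgm1, a regulator of the family, was the most abundant member in controls at 112.0 to 121.4 CPM and reached 208.7 to 304.6 (log2 fold change 1.14, SE 0.120, edgeR adjusted p = 4.36e-09). Ifi47 (Irgd) went from 14.9 to 18.4 CPM in controls to 40.4 to 43.5 in IFNγ (log2 fold change 1.38, edgeR adjusted p = 0.000945, or 0.0553 without IFNγ replicate 1). F830016B08Rik had 1 count in the controls and 19 in IFNγ, a ratio of 35.6 (95% exact interval 5.66 to 1480), and Gm4951 had 0 counts in IFNγ replicate 3, so that its groups overlapped although it passed the test.

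Tgtp1 and Tgtp2 encode the T-cell-specific GTPase and cannot be read apart here. Their transcripts were 99.8% identical over 2811 bases. Tgtp2 had 0 counts in all 3 controls and 375, 256 and 50 in IFNγ, at least 426-fold higher (3 counts over the control group), whereas Tgtp1 had 25, 43 and 48 counts in controls and 125, 29 and 50 in IFNγ and did not pass (edgeR adjusted p = 0.0754). In 9 of the 12 CT26 control libraries of all weeks 1 of the 2 copies was at 0, and in none of the 33 IFNγ libraries. Summed, an alternative added after the data were seen, the pair stood at 23.04, 29.4 and 23.6 CPM in controls and at 358.1, 380.6 and 314.9 in IFNγ (log2 fold change 3.80, SE 0.169, edgeR adjusted p = 4.19e-21).

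**Figure D2:**
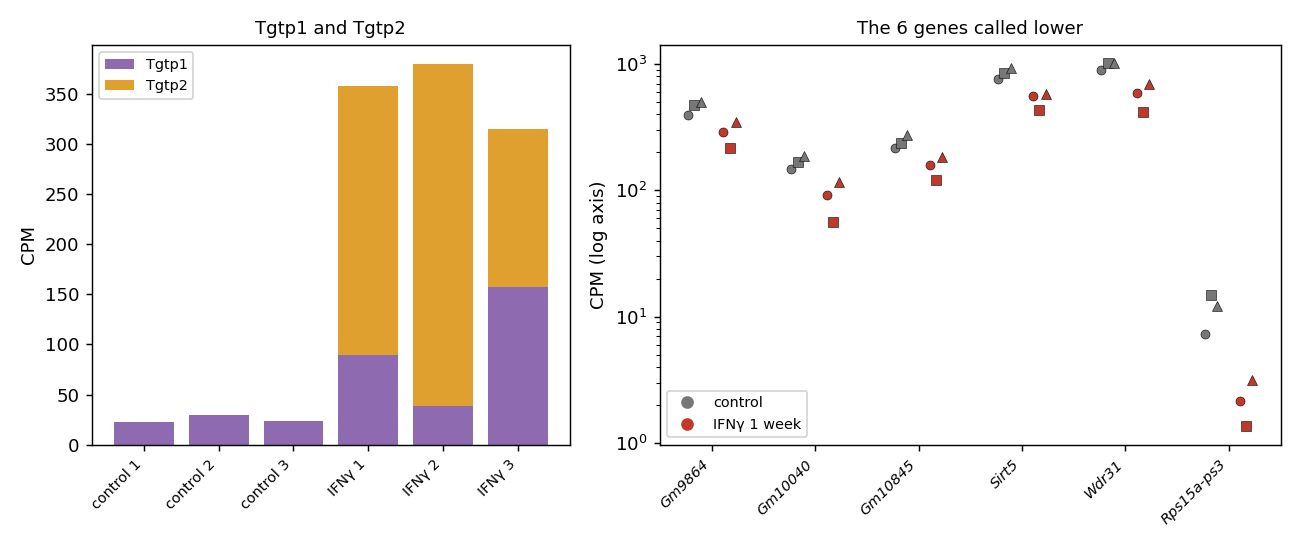
Left, CPM of Tgtp1 and Tgtp2 stacked in each CT26 library at 1 week, with Tgtp2 at 0 in the 3 controls and a sum of 314.9 to 380.6 CPM in IFNγ; right, CPM on a log axis of the 6 genes called lower, controls in grey and IFNγ in red, a marker shape per replicate. For each of the 6, all IFNγ libraries lie below all controls.

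Antiviral effectors gave the most calls of any list, 11 of 30 tested, with a median log2 fold change of 1.14. Rtp4, a chaperone that also binds viral replication sites, went from 17.4, 22.4 and 20.5 to 87.7, 82.2 and 60.1 CPM (log2 fold change 1.98, edgeR adjusted p = 4.36e-09). Ifi44, Bst2 (tetherin) and Ifit1 had log2 fold changes of 2.19, 1.23 and 1.80. Ifitm3, a membrane protein that blocks viral fusion, was the most abundant at 811.8, 1031 and 1079 CPM in controls and 1662, 1523 and 1470 in IFNγ, and the smallest in fold (log2 fold change 0.67, SE 0.112, edgeR adjusted p = 8.43e-05). Ifit3, Ddx60, Oasl2, Ifi35, Isg20 and Oasl1 completed the list with log2 fold changes from 0.84 to 3.36. Among these, the call of Ifit3 was lost without either of 2 libraries (control replicate 3, IFNγ replicate 1; edgeR adjusted p up to 0.362), that of Oasl1 also without IFNγ replicate 2 (up to 0.232), and that of Isg20 without any 1 library but IFNγ replicate 3 (up to 0.176). Those that did not pass included Oas1a, in which the groups were apart (44.8 to 44.9 CPM in controls and 82.2 to 98.0 in IFNγ; log2 fold change 0.97, edgeR adjusted p = 0.269), and Eif2ak2, the kinase PKR (log2 fold change 0.94, edgeR adjusted p = 0.111).

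The gene with the smallest p of all was Zbp1, a sensor of Z-form nucleic acids that can start necroptosis. Zbp1 had 4.59, 4.75 and 4.39 CPM in controls and 90.6, 98.4 and 56.9 in IFNγ, an 18.6-fold increase (log2 fold change 4.22, SE 0.267, edgeR adjusted p = 2.09e-15). It was the only one of 10 tested nucleic acid sensors called, and Ifih1 (MDA5) and Ddx58 (RIG-I) had log2 fold changes of 1.98 and 1.38 (edgeR adjusted p = 0.107 and 0.161). Of 6 genes of ISG15 conjugation, which attaches this ubiquitin-like protein to others, the enzyme Ube2l6 and the protease Usp18 rose. Ube2l6 went from 83.3 to 89.9 CPM in controls to 186.1, 234.5 and 132.8 in IFNγ (log2 fold change 1.15, edgeR adjusted p = 2.22e-06), whereas Isg15 itself, at 13 counts in controls and 27 in IFNγ, did not pass (log2 fold change 1.85, edgeR adjusted p = 0.113). Among PML body and TRIM genes 4 of 11 were higher, namely Nmi, Sp100, Sp110 and Trim30a, with log2 fold changes of 1.62, 1.22, 2.60 and 2.14. In Sp110 the groups overlapped, with 1 count in IFNγ replicate 3, and its call was lost without control replicate 2 or 3 or IFNγ replicate 1 or 2 (edgeR adjusted p up to 0.289). The call of Sp100 was lost without control replicate 3 or IFNγ replicate 1 (up to 0.137) and that of Trim30a without control replicate 2 or 3 (up to 0.0873).

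Of the interferon-induced PARPs, ADP-ribosyltransferases of which Parp14 was the study's main subject, 1 of 6 passed, with a list median log2 fold change of 1.68. Parp9 had 5.50, 6.11 and 4.87 CPM in controls and 19.96, 5.39 and 37.9 in IFNγ (log2 fold change 1.73, SE 0.406, edgeR adjusted p = 0.0154). The IFNγ values ran from within the controls to several times above them, and the call was lost in 5 of 12 alternatives, 4 of which leave out 1 library (control replicate 1 or 3, IFNγ replicate 1 or 3; edgeR adjusted p from 0.0576 to 0.3002). Parp14 had 1 count in the controls and 3 in IFNγ, a ratio of 5.63 with a 95% exact interval of 0.452 to 295 (edgeR adjusted p = 0.838), so that no change was detectable at this depth. Its level in other CT26 groups, for the same gene, was 9.90 to 15.3 CPM in naive cells after 24 h of IFNγ and 16.9 to 26.7 CPM at 3 weeks. Parp12 and Dtx3l, the E3 ligase that pairs with Parp9, had log2 fold changes of 1.62 and 1.26 (edgeR adjusted p = 0.645 and 0.701), and Parp10 and Parp11 of 2.22 and 1.54 (0.200 and 0.133).

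Cd274, the gene of PD-L1, had 2 counts in the 1-week controls and 1 in IFNγ, a ratio of 0.938 (95% exact interval 0.0159 to 18). For Cd274, naive cells after 24 h of IFNγ had 5.95 to 19.8 CPM and 1-week cells 24 h after fresh IFNγ 4.28 to 11.5 CPM, against 0 to 0.713 CPM in the 1-week IFNγ cells. None of the 6 tested members of the list of checkpoint and lymphocyte ligands passed the test. Nor did any of the 4 tested members of the list of chemokines and cytokines. The cytokine Il7, which passed, was in no list and is given below. In the list of chemokines and cytokines, Cxcl10, a T cell attractant, had 11 counts in controls and 12 in the IFNγ libraries, which together were less deep. Of the 20 members, 16 had too few counts to be tested.

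**Figure D3:**
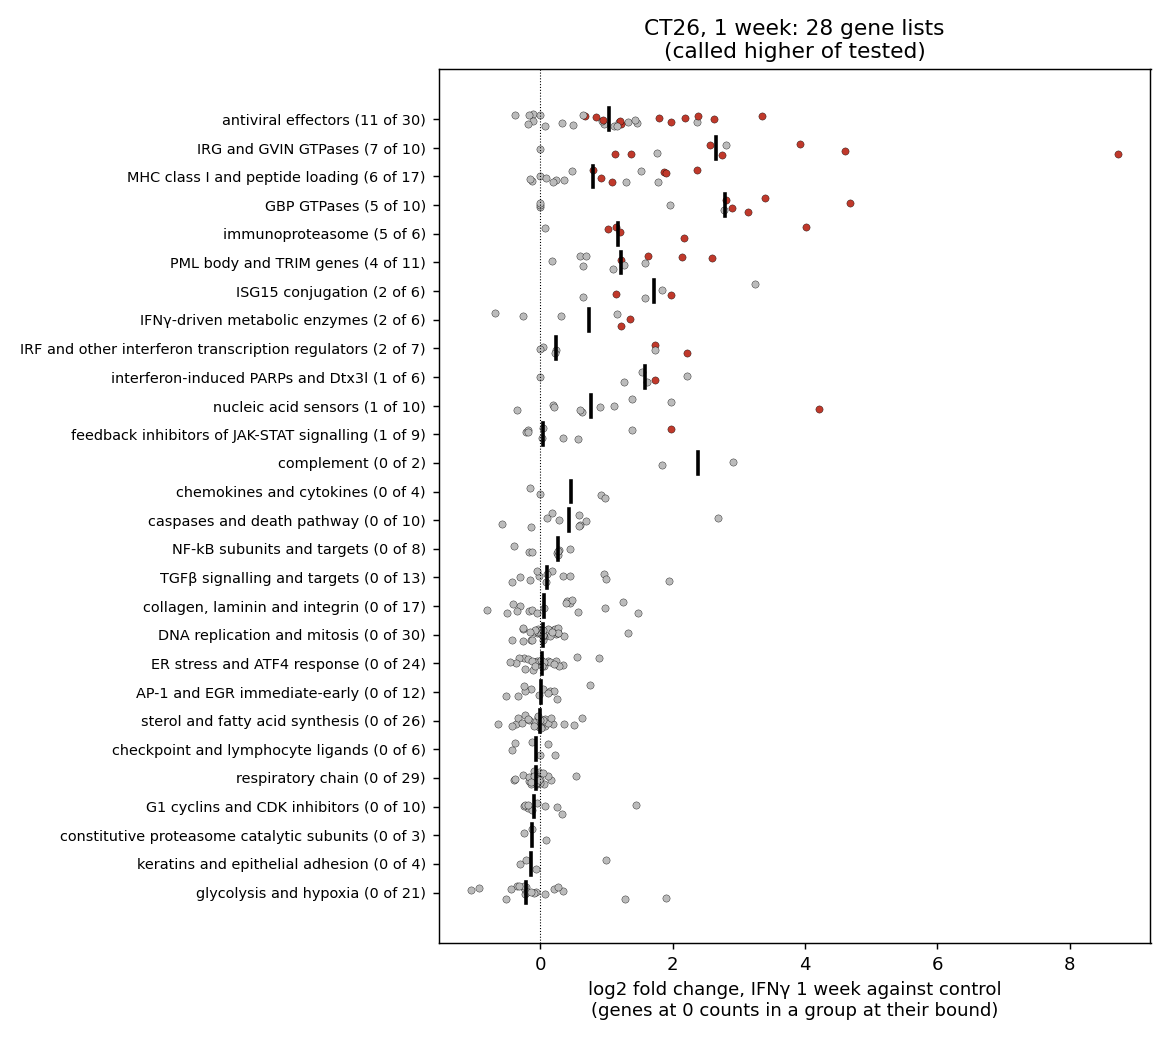
Log2 fold change of every tested member of 28 gene lists in CT26 cells at 1 week, genes called higher in red, others in grey, the list's median as a bar and genes at 0 counts in a group at the change that 3 counts allow. The calls lie in 12 lists of interferon biology, and the medians of the other 16 lists run from −0.21 to 2.38, the highest being complement with 2 tested members.

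Outside interferon biology no list held a call. The 30 genes of DNA replication and mitosis had a median log2 fold change of 0.04, the 29 of the respiratory chain −0.07, the 26 of sterol and fatty acid synthesis −0.01, the 24 of ER stress 0.02, the 21 of glycolysis and hypoxia −0.21 and the 12 of AP-1 and EGR genes 0.02, beside 0.01 over all tested genes. Nearest to the threshold was Ndufa4, a subunit associated with cytochrome c oxidase, at 1438, 1365 and 1454 CPM in controls and 1030, 1218 and 974 in IFNγ (log2 fold change −0.40, SE 0.104, edgeR adjusted p = 0.0538). The proliferation gene Mki67 had 12.2 to 15.6 CPM in controls and 18.9 to 66.4 in IFNγ, with the shallow library highest (log2 fold change 1.33, edgeR adjusted p = 0.310). Under the alternatives tried, at most 1 gene of DNA replication, of collagen, laminin and integrin or of the respiratory chain was called, and none of the other 13 lists without calls. Within interferon biology, the list named IFNγ-driven metabolic enzymes held 2 calls of 6 tested, Apol9a and Apol9b. Both belong to the apolipoprotein L family and are not metabolic enzymes. Their log2 fold changes were 1.21 and 1.36 (edgeR adjusted p = 1.91e-05 and 0.00024), and their transcripts were 98.5% identical over 1529 bases. The enzyme Wars, tryptophanyl-tRNA synthetase and a known IFNγ target, had a log2 fold change of −0.26 (edgeR adjusted p = 0.819).

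Of the 9 higher genes in no list, Ly6a, the surface antigen Sca-1, had the smallest p, with 4.59, 16.3 and 14.1 CPM in controls and 93.4, 67.4 and 66.4 in IFNγ (log2 fold change 2.66, SE 0.253, edgeR adjusted p = 2.18e-10). Ly6c1, of the same family, rose as well (log2 fold change 2.06, edgeR adjusted p = 0.000707). With only the compared groups in the fit, the calls of Ly6c1 and of Samd9l, a restriction factor, were lost (edgeR adjusted p = 0.0538 and 0.108). In that fit the calls of H2-K1, Sp100, Trim30a, Oasl1 and Isg20, given above, were lost as well (edgeR adjusted p from 0.067 to 0.12). Gm4070 had 5 counts in controls and 83 in IFNγ (log2 fold change 4.88, SE 0.564, edgeR adjusted p = 3.95e-08). Lgals3bp, a secreted galectin ligand, went from 41.4 to 47.3 CPM in controls to 82.2 to 94.9 in IFNγ (log2 fold change 0.99, edgeR adjusted p = 7.19e-06). Samd9l, Phf11d, Gm43302 and Gm20559 had log2 fold changes of 1.75, 1.57, 3.55 and 1.99. Il7, a lymphocyte survival cytokine, had 2 counts in controls and 13 in IFNγ, a ratio of 12.2 (95% exact interval 2.76 to 111), and its call was lost without control replicate 1 or 3 or IFNγ replicate 1 (edgeR adjusted p up to 0.401). The calls of Gm43302 (without control replicate 3 or IFNγ replicate 1, up to 0.132) and of Gm20559 (without control replicate 2 or IFNγ replicate 1, up to 0.296) were lost as well.

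The 6 genes called lower were Wdr31, Sirt5, Gm9864, Gm10845, Gm10040 and Rps15a-ps3, and 5 of them share sequence. Wdr31, a WD-repeat protein gene, had 896.2, 1026 and 1024 CPM in controls and 596.8, 419.1 and 692.5 in IFNγ (log2 fold change −0.80, SE 0.137, edgeR adjusted p = 0.000145), a call that was lost with only the compared groups in the fit (edgeR adjusted p = 0.0591). Sirt5, a mitochondrial lysine deacylase, had 766.0, 855.8 and 926.0 CPM in controls and 560.4, 433.9 and 578.6 in IFNγ (log2 fold change −0.70, SE 0.137, edgeR adjusted p = 0.00130). Gm9864, Gm10845 and Gm10040 had log2 fold changes of −0.72, −0.68 and −0.99, calls that were lost without control replicate 3 or IFNγ replicate 2 (edgeR adjusted p up to 0.176). With only the compared groups in the fit these calls were lost as well (edgeR adjusted p = 0.141, 0.156 and 0.0699). Every pair among these 5 aligned, 10 of 10, over 253 to 1662 bases at 87.7 to 97.6% identity, those with Gm10845 at 87.7 to 89.1%. How the reads of these genes were divided among them was not tested.

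Summed, the 5 stood at 2432, 2786 and 2942 CPM in controls and at 1707, 1237 and 1915 in IFNγ (log2 fold change −0.75, SE 0.128, edgeR adjusted p = 0.000137). The search for shared sequence was made after the data were seen. Rps15a-ps3, a ribosomal protein pseudogene, went from 7.34, 14.9 and 12.2 to 2.14, 1.35 and 3.16 CPM (log2 fold change −2.47, SE 0.625, edgeR adjusted p = 0.0399), or 5 counts in all IFNγ libraries, and was called in 3 of 11 alternatives, losing the call without any 1 library but control replicate 1 (edgeR adjusted p up to 0.29).

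Naive CT26 cells given IFNγ for 24 h were compared with their own controls to ask how 1 week of exposure differed from a first, acute one. These responses share no samples. The naive cells had IFNγ added 24 h before harvest, whereas the 1-week cells received none afresh. Within this comparison, length of exposure and time since fresh IFNγ thus cannot be told apart. The 1-week cells given fresh IFNγ for 24 h share the time since fresh IFNγ with the naive cells. Their levels are described below, and their response was not tested against the naive one. After 24 h, 151 genes were higher (1.77%), among them 55 of the 56 that were higher at 1 week (98.2% of the 1-week genes, 36.4% of the 24 h genes). Il7 was the exception, with a log2 fold change of 1.10 at 24 h (edgeR adjusted p = 0.479). The median log2 fold change of the 56 was 1.99 at 1 week and 3.20 at 24 h, and 53 of the 56 had the smaller change at 1 week. The remaining 96 genes higher at 24 h did not pass at 1 week, with a median log2 fold change of 0.67 there and 1.81 at 24 h. These 96 were chosen for passing at 24 h and not at 1 week, which favours the smaller value at 1 week, and the medians are a description.

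The difference between the responses was itself tested by an interaction contrast, in which 23 genes were called, all with the smaller response at 1 week (0.270% of tested genes; 590 at an unadjusted p below 0.05). Irgm1 differed most clearly: 1 week raised it from 112.0 to 121.4 CPM to 208.7 to 304.6, whereas 24 h raised it from 74.9 to 88.6 to 512.9 to 538.5 CPM (difference of log2 fold changes −1.55, SE 0.169, edgeR adjusted p = 1.17e-07). For Irgm1 the untreated cells at 1 week were thus above the naive untreated ones. The 1-week IFNγ cells were below the naive cells after 24 h of IFNγ. Ube2l6 had a log2 fold change of 1.15 at 1 week and 2.86 at 24 h (difference −1.71, SE 0.219, edgeR adjusted p = 4.04e-06). Psme2, Psmb10 and Ifitm3 followed with differences of −1.06, −1.12 and −1.0. These 5 were called on leaving out any 1 of the 12 libraries compared.

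Of the 23, 17 were also higher at 1 week, among them Gbp7, Gbp2, Gbp2b, Igtp, Ifi44, Usp18 and Ly6a, with differences from −1.59 to −2.82. The other 6 were Tgtp1, Wars, Mitd1, Herc6, Trim21 and Tiparp. Of these, Tgtp1 was counted apart from its near-identical copy, a division of reads that was not tested. Summed with Tgtp2, its difference was −1.48 (SE 0.246, edgeR adjusted p = 0.000502) in place of −6.03. Irf1, with log2 fold changes of 1.74 and 2.31, and B2m, with 0.79 and 0.92, were not called in this contrast (edgeR adjusted p = 0.807 and 0.929). Nor was H2-D1, which had a log2 fold change of 1.08 at 1 week and of 0.74 at 24 h (edgeR adjusted p = 0.744). The count of 23 was 13 without 1-week control replicate 3, 14 without naive control replicate 3 and 14 with only the compared groups in the fit.

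**Figure D4:**
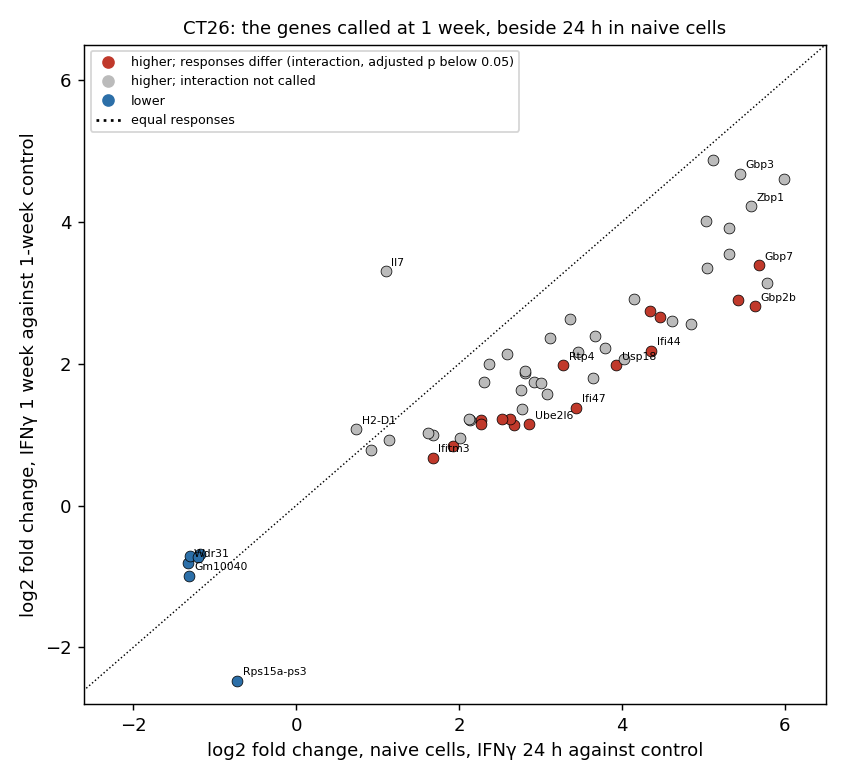
Log2 fold change at 1 week of IFNγ (vertical) against that after 24 h in naive cells (horizontal) for 61 of the 62 genes called at 1 week, without Tgtp2, whose controls were at 0; red marks genes whose responses differ in the interaction contrast, blue the genes called lower, and the dotted line equal responses. Of the genes called higher, 53 of 56 have the smaller change at 1 week, and H2-D1 and Il7 lie above the line.

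The level of the 56 genes across the CT26 groups is a description, since the 1-week samples chose them. Averaged as log2(CPM + 1), the 1-week controls stood at 3.47 to 3.61 and the 1-week IFNγ libraries at 5.50 to 5.76. Fresh IFNγ for 2 h brought the 1-week cells to 6.14 to 6.24 and for 24 h to 6.95 to 7.01, beside 6.65 to 6.76 in naive cells after 24 h. At 2 weeks the IFNγ libraries stood at 5.44 to 5.62, within or below the range of 1 week, and at 3 weeks at 6.86 to 6.97, above it.

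**Figure D5:**
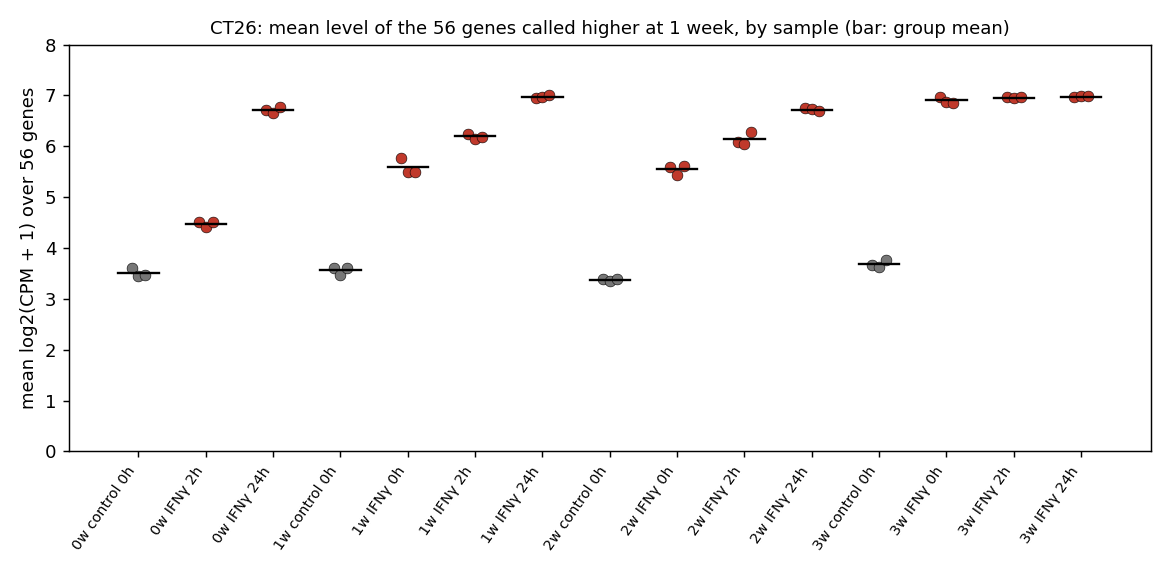
Mean log2(CPM + 1) over the 56 genes called higher at 1 week in each library of the 15 CT26 groups (0w, naive cells; 1w to 3w, weeks of culture; 0h, 2h and 24h, hours after IFNγ was added or renewed), controls in grey, IFNγ in red and a bar at the group mean. The 1-week IFNγ libraries lie between 5.50 and 5.76, above all controls and below the libraries of 24 h of fresh IFNγ.

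A further week was asked about in the same way. At 2 weeks 79 genes were higher (0.928%), 46 of them among the 56 of 1 week (82.1% of the 1-week genes, 58.2% of the 2-week genes), and the median log2 fold change of the 56 was 2.02. The difference between the 2-week and the 1-week response passed the test in 9 genes (0.106%; 530 at an unadjusted p below 0.05), 2 with a larger and 7 with a smaller value at 2 weeks. Of the 56 risers, Igtp had a larger response at 2 weeks, from 1.93 to 3.45 CPM in controls to 72.8 to 87.4 in IFNγ (difference 2.20, SE 0.469, edgeR adjusted p = 0.0383). The differences of Tgtp1 (9.89) and Tgtp2 (−7.86) were opposite in sign. Summed, the pair differed by 0.78 (SE 0.256, edgeR adjusted p = 0.471), and how reads were divided between the copies was not tested.

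The other 6 genes had no change at 1 week that passed the test and were lower at 2 weeks. Avpi1 had 136.5 to 145.9 CPM in 1-week controls and 134.0 to 161.7 in 1-week IFNγ, and 164.8 to 189.6 and 76.0 to 93.0 CPM at 2 weeks (difference −1.03, SE 0.195, edgeR adjusted p = 0.0183). Cst3, Rpl27a, Gpx1, Gpx4 and Ywhaq had differences of −0.84, −0.97, −0.70, −0.74 and −0.68, and Gpx1 and Gpx4 are the glutathione peroxidases that detoxify peroxides. These calls are few and fragile: leaving out any one of the 12 libraries left between 1 and 5 of all genes called, and summing the copies left 1, Avpi1. The call of Igtp was lost without 10 of the 12 libraries (edgeR adjusted p up to 0.631) and that of Avpi1 without 9 (up to 0.146).

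YUMM2.1 melanoma cells given the same week of IFNγ had 64 higher genes (0.619% of 10339 tested over both lines), and 40 of the 52 higher in CT26 in that same fit were among them (76.9% of the CT26 genes, 62.5% of the YUMM2.1 genes). The responses of the lines differed in 6 genes (0.0580%; 338 at an unadjusted p below 0.05), 5 with the smaller and 1 with the larger value in CT26. H2-D1 rose from 17.04 to 27.9 CPM to 185.3 to 206.7 in YUMM2.1, whereas in CT26 it started at 184.6 to 186.2 and reached 351.0 to 425.7 (difference −2.14, SE 0.226, edgeR adjusted p = 1.94e-10). The treated YUMM2.1 cells thus reached about the level of untreated CT26 cells. CT26 and YUMM2.1 come from different mouse strains, and H2-D1 is a polymorphic gene counted against 1 reference, so that the line and the strain cannot be told apart.

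Irgm1 and Ifi47 differed in the same direction, by −1.12 (SE 0.202, edgeR adjusted p = 0.00154) and −3.20 (SE 0.452, edgeR adjusted p = 3.30e-06). For Ifi47 the YUMM2.1 controls were at 1.27 to 3.03 CPM and the CT26 controls at 14.9 to 18.4, while the IFNγ levels, 33.4 to 51.8 and 40.4 to 43.5 CPM, overlapped. H2-M3, a nonclassical class I gene, had a difference of −2.65 (SE 0.564, edgeR adjusted p = 0.0208) and likewise lower controls in YUMM2.1, at 0.379 to 1.90 CPM against 20.5 to 28.5 in CT26. Ifi27 fell short of a call in CT26 (log2 fold change −0.40 in this fit), where it had 126.9 to 162.3 CPM in controls and 107.5 to 111.9 in IFNγ, and rose in YUMM2.1 (log2 fold change 0.74, edgeR adjusted p = 0.00178), a difference of −1.13 (SE 0.226, edgeR adjusted p = 0.00927). Serpinf1 was the gene with the larger value in CT26 (difference 2.19, SE 0.467, edgeR adjusted p = 0.0208), at 2.44 to 3.67 CPM in controls and 6.74 to 15.8 in IFNγ. Irf1 and B2m had differences of 0.06 and −0.60, neither of which passed. The calls of H2-D1 and Ifi47 held on leaving out any 1 of the 12 libraries. Those of Irgm1, Ifi27, H2-M3 and Serpinf1 were lost without YUMM2.1 IFNγ replicate 2 (edgeR adjusted p = 0.0526, 0.0587, 0.0526 and 0.0526), that of Ifi27 also without CT26 control replicate 3 (0.0981), and those of Serpinf1 and H2-M3 also without 4 and 5 other libraries (up to 0.903 and 0.282).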

How the data were processed

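RNA of triplicate experiments was measured by 3′ digital gene expression. The authors deposited whole-number read counts per gene for 53697 genes in 90 samples, made with Salmon (version 0.13.1) and the mouse build mm10 according to the submitters' processing notes, and imported them with tximport. The annotation release and any use of molecular identifiers are not given in the sources used here. The deposited counts were used unnormalised. No row was blank or a total, and 29 rows had no symbol. The study's methods state that some CT26 samples were discarded as outliers without naming them, and all 45 CT26 samples were kept here.

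Samples were grouped by their titles. Genes were filtered with filterByExpr by group, scaled by TMM and fitted with edgeR (version 4.0.16, R 4.3.3) quasi-likelihood models over the 15 CT26 groups, or over the 30 groups of both lines for the comparison with YUMM2.1, without covariates. Contrasts and interaction contrasts were tested two-sided with Benjamini-Hochberg adjustment over all tested genes at 0.05. CPM, apart from marker sums and limits at 0 counts, use TMM-scaled library sizes and are averaged nowhere unless stated. Library totals of the 6 samples were 322486 to 2205285. A count of 0 allows up to 3 counts, and exact 95% intervals of ratios cover counting error only, since reads may not be independent molecules. P-values measure the spread between the samples, which may be technical where replicates were not separate cultures. Replicates of 1 group differed beyond sampling noise by a chi-square test and were all kept. The scripts were tested on simulated data.

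The members and the 30 lists were chosen with earlier results of these data known. By rule the genes to be named were Irf1, B2m, Cd274, Parp9, Parp12, Parp14 and Dtx3l. Added to them were the 12 largest called changes in each direction with groups apart and the 4 smallest p in each list. The rule also took all calls of a list with 8 or fewer, and up to 6 calls per direction of each interaction contrast. Not every gene so taken is named in the text. A further gene, and the counts over its list, are not reported here. Other genes named, among them the remaining calls and members of the lists at low counts, were chosen after their values were seen. Alternatives were DESeq2 (version 1.42.0), library totals, no filter, only the compared groups, limma voom with quality weights (version 3.58.1), a replicate block, a minimum absolute log2 fold change of 0.5, leaving out each sample or all samples under 25% of the line's median, and, added after the data were seen, summed counts of near-identical copies. Shared sequence was found with blastn (version 2.17.0). Promoters and their coordinates are of RefSeq on GRCm38.p6, the same assembly as mm10. The deposited tables give no comparison of the authors' own that was used.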

Additional observations from a re-analysis of the deposited data

Results flagged for a closer look

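Each of the following results was singled out because a test of the difference between 2 responses passed an adjusted p of 0.05 (edgeR's quasi-likelihood test, interaction contrast).

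Between 1 week of IFNγ and 24 h in naive CT26 cells, 23 genes differed, all smaller at 1 week. Those with the smallest p had differences of log2 fold changes of −1.55 for Irgm1, −1.71 for Ube2l6, −1.06 for Psme2, −6.03 for Tgtp1, −1.12 for Psmb10 and −1.0 for Ifitm3.

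Between 2 weeks and 1 week, 9 genes differed. The differences were 9.89 for Tgtp1 and 2.20 for Igtp, and −1.03 for Avpi1, −7.86 for Tgtp2, −0.84 for Cst3, −0.70 for Gpx1, −0.97 for Rpl27a, −0.74 for Gpx4 and −0.68 for Ywhaq. The transcripts of Tgtp1 and Tgtp2 are near-identical, and how reads were divided between them was not tested.

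Between CT26 and YUMM2.1 at 1 week, 6 genes differed. The differences, CT26 less YUMM2.1, were 2.19 for Serpinf1, −2.14 for H2-D1, −3.20 for Ifi47, −1.12 for Irgm1, −1.13 for Ifi27 and −2.65 for H2-M3.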

How the results depend on the processing

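No called change reversed its direction under any alternative. Of the 62 genes called at 1 week, 41 were called in every alternative in which they were tested. The count of 62 became 120 (82 higher, 38 lower) without the filter on low counts and 127 (92 higher, 35 lower) with limma voom and quality weights, against 73 with DESeq2, 68 with library totals, which moved the median of all genes to 0.09, 68 without shallow samples, 58 with near-identical copies summed and 49 with only the compared groups. Leaving out each sample gave 49 to 64. Without the shallow IFNγ replicate 3 the count was 64, with H2-K1, Parp9 and Rps15a-ps3 lost and Erap1, Gm42636, Gm48368, Irgm2 and Ncbp3 gained.

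The 23 genes that differed from 24 h became 61 (25 higher, 36 lower) without the filter, 35 with limma voom and 14 with only the compared groups, and 13 to 28 on leaving out each sample. The 9 that differed from 2 weeks became 22 with DESeq2, 50 without the filter, 15 with limma voom and 1 with copies summed, and 1 to 5 on leaving out each sample. The 6 that differed from YUMM2.1 became 11 with DESeq2 and 31 without the filter, and 2 to 7 on leaving out each sample, the 2 being without YUMM2.1 IFNγ replicate 2. The cause of these shifts was not tested.

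Deviations of same-numbered samples of the compared groups correlated weakly (0.0010, 0.0229 and 0.0652), beside −0.0831 to 0.0518 for differently numbered ones. These values cannot exclude a pairing by number, since they rest on 3 samples a group. With the replicate number as a block the 4 counts were 65, 23, 10 and 6. Over all alternatives and 144 genes, 1852 log2 fold changes kept their side of the threshold, 65 lost and 18 gained a call, and of the differences between responses 284 kept it and 113 lost it. Depth limits genes of a few counts, such as Parp14, Cd274, Socs1 and Nlrc5.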
